A study of Mus musculus with 3 samples.

Results

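The genes described here encode meiotic cohesin subunits and proteins of the meiotic chromosome axis and the synaptonemal complex: Rec8, Stag3, Smc1b, Smc3, Hormad1, Sycp2, Sycp3, Sycp1, Syce2 and Tex12. They were found through the transcript accession of each array probe, matched to a mouse gene table of NCBI RefSeq. All 10 genes were on the array, with 16 probes, out of 16531 gene symbols matched to 41149 usable probes. Total RNA from embryonic male gonads at embryonic day 14.5 was hybridised to Agilent one-colour arrays, which measure each transcript by the Cy3 brightness of a short probe. There were 3 genotypes of the MCH mouse line with 2 arrays each. The first was labelled Cyp26b1-/-/Stra8+/+ (Cyp26b1 knockout), the next Cyp26b1-/-/Stra8-/- (double knockout) and the last Cyp26b1+/+/Stra8+/+ (wild type). No Stra8 knockout with intact Cyp26b1 was analysed here, so the effect of Stra8 loss was seen on the Cyp26b1 knockout background alone. The design text calls the duplicates biological. The labels do not say if the RNA of an array came from a single embryo or from several, so p-values measure the spread between these arrays.

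Cohesin is a ring of SMC proteins closed by a kleisin subunit that holds sister chromatids together. Germ cells entering meiosis replace parts of the mitotic ring with meiotic subunits, and the resulting complexes organise the axis on which chromosomes are folded into loops. HORMA-domain proteins and SYCP2 and SYCP3 build on this axis, and SYCP1 with central element proteins such as SYCE2 and TEX12 later joins the paired axes in the synaptonemal complex. In mouse, germ cells of the fetal ovary enter meiosis at about this age, while those of the fetal testis do not. CYP26B1 degrades retinoic acid in the fetal testis, and STRA8 is a retinoic acid-responsive factor needed for meiotic entry. Set beside wild type, the Cyp26b1 knockout shows which of these genes respond to the loss of that enzyme, and the double knockout which of those responses are still seen without Stra8.

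The arrays and the tissue were checked first. The 75th percentile of the processed signal lay between 997 and 1136 on the Cyp26b1 knockout arrays, between 1246 and 1441 on the double knockout arrays and between 1300 and 1536 on the wild-type arrays, and each array was scaled by it. Between 61.9% and 68.6% of probes were well above background, and the arrays of a genotype correlated at a Pearson r between 0.994 and 0.996 over 24500 probes, which are not independent replicates. Each genotype had a slide of its own, so slide and genotype cannot be told apart. The Cyp26b1 knockout slide was also scanned on another day than the other two slides, so scan day cannot be told apart from genotype in comparisons with the Cyp26b1 knockout, while double knockout and wild type shared a scan day. Levels below are log2 signals after this scaling, so that 0 is the 75th percentile of an array. Stra8 had levels of 7.15 and 6.99 in Cyp26b1 knockout, 5.93 and 6.09 in double knockout and 3.69 and 2.37 in wild type. Cyp26b1 had 4.23 and 3.78 in Cyp26b1 knockout, 4.06 and 3.87 in double knockout and 3.99 and 3.79 in wild type. Neither probe was low in the arrays labelled as its knockout, and where each probe lies relative to the deleted part is not stated, so these probes do not check the labels. All 6 germ cell markers, all 6 Sertoli cell markers and all 4 measured fetal Leydig cell markers were well above background in every genotype, while of 5 ovarian somatic markers Foxl2 and Irx3 missed that mark on at least 1 array of each genotype. The summed linear level of the 4 Leydig markers was 57.4 to 76.7 in Cyp26b1 knockout, 80.6 to 95.8 in double knockout and 93.8 to 109.1 in wild type, and 3 of the 4 fell in Cyp26b1 knockout, among them Star, which brings cholesterol into mitochondria (-1.57, limma adjusted p = 0.000218). That of the 6 Sertoli markers was 37.5 to 41.4 in Cyp26b1 knockout, 37.1 to 42.0 in double knockout and 32.0 to 36.5 in wild type. Of these, Dhh rose in Cyp26b1 knockout (0.31) and was not called in double knockout (0.24). Amh fell in both (-0.40 and -0.47), and Sox9, Sox8, Wt1 and Nr5a1 were called in neither. Of 4 endothelial markers, with sums of 4.23 to 4.43 in Cyp26b1 knockout, 5.10 to 5.74 in double knockout and 5.26 to 5.71 in wild type, Pecam1 (1.58) and Tek (0.67) rose and Cdh5 (-0.69) and Kdr (-0.52) fell in Cyp26b1 knockout. Of the ovarian somatic markers, Wnt4 rose in Cyp26b1 knockout (1.23) and in double knockout (0.76). Fst fell in Cyp26b1 knockout (-1.73) and was not called in double knockout (-0.93). Rspo1 was called in neither (-0.37 and 0.11). The part of these cell types in the results below was not tested.

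In Cyp26b1 knockout gonads, 9 of the 10 genes had higher RNA levels than in wild type and none had lower levels, each gene being represented by its brightest probe. Rec8 was higher by 6.80-fold, Stag3 by 2.37-fold and Smc1b by 2.19-fold, and the other genes that rose did so by 1.35-fold to 1.98-fold. In double knockout gonads 5 of the 10, namely Rec8, Stag3, Hormad1, Sycp1 and Syce2, were higher than in wild type and none was lower. Set directly against Cyp26b1 knockout, double knockout had lower levels of Stag3, Smc3, Sycp2 and Sycp3 and a higher level of no member. The tests were limma fits of all 27865 tested probes over the 6 arrays, with a Benjamini-Hochberg adjusted p threshold of 0.05. Across all tested probes 53.2% were called in Cyp26b1 knockout against wild type (25.1% higher, 28.0% lower). The share was 11.5% in double knockout against wild type (5.02% higher, 6.46% lower) and 45.8% in double knockout against Cyp26b1 knockout (23.5% higher, 22.3% lower). The median log2 change of the 10 genes was 0.93 for Cyp26b1 knockout against wild type, 0.57 for double knockout against wild type and -0.37 for double knockout against Cyp26b1 knockout, where all tested probes had medians of -0.04, -0.02 and 0.04. Each pair of these comparisons shares the arrays of 1 genotype. In whole gonads, fewer cells of a type and less RNA per cell cannot be told apart. The summed linear level of the 6 germ cell markers was 52.9 to 66.0 in Cyp26b1 knockout, 67.7 to 77.7 in double knockout and 79.7 to 81.3 in wild type. These markers went apart in Cyp26b1 knockout against wild type. Dazl (0.72) rose, Ddx4 (-0.46), Mael (-1.07) and Tfap2c (-1.69) fell, and Dppa3 and Sall4 were not called. The part of germ cell content in these changes was not tested.

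**Figure D1:**
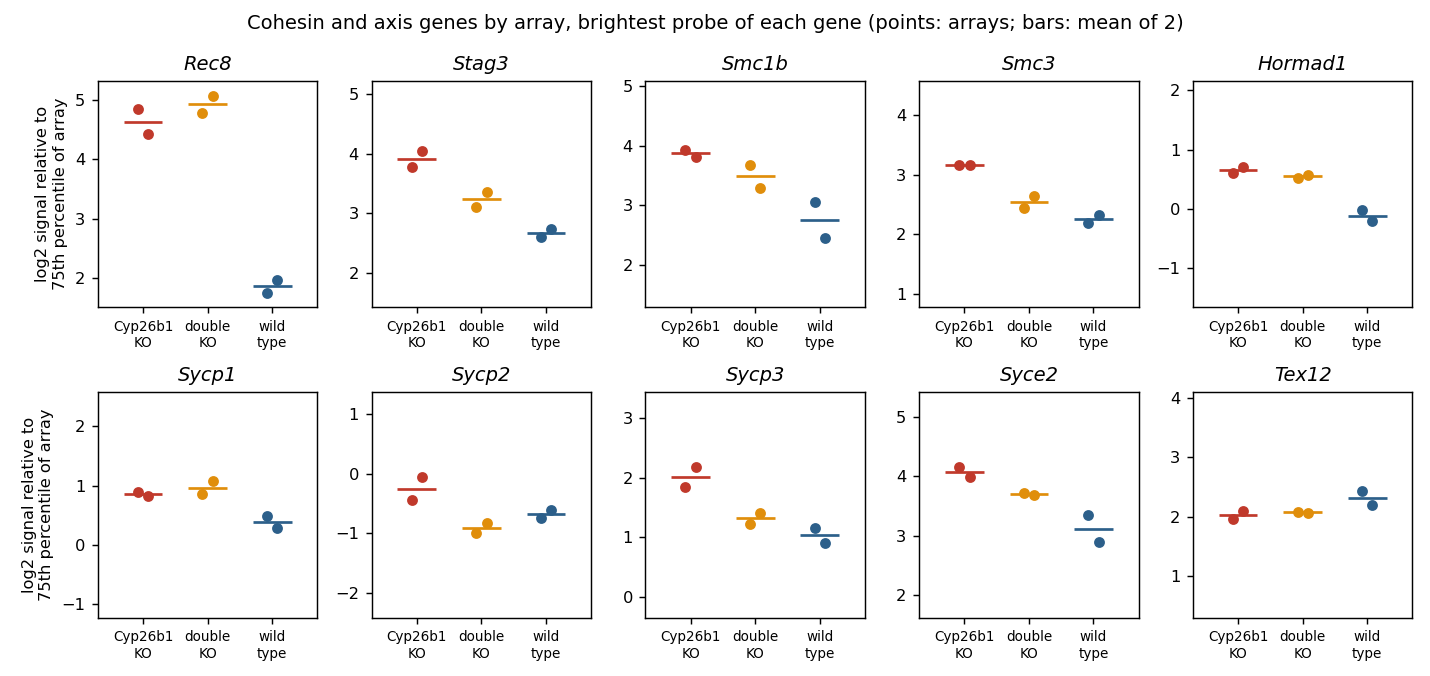
Log2 level of the brightest probe of each gene (0 is the 75th percentile of an array) in Cyp26b1 knockout, double knockout and wild type. Points are arrays (2 per genotype) and bars are their means, and every panel spans the same number of log2 units. Rec8 stood at 4.42 to 5.08 in both knockouts, against 1.76 and 1.98 in wild type, while the double knockout points of Stag3, Smc1b, Smc3, Hormad1, Sycp3 and Syce2 lay between those of the other genotypes.

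RefSeq's promoter table (build GRCm38.p6, 250 bases before to 50 after each annotated start) held 12 promoters of the 10 genes. The sequences below run 5′ to 3′ on the strand of the gene and are shown because Rec8 and Hormad1 were called higher in both knockouts, whereas Smc3 and Sycp3 were called higher in Cyp26b1 knockout and lower in double knockout than in Cyp26b1 knockout. Capitals mark matches, on either strand, to the E-box CACGTG, the E2F core TCCCGC, the nuclear receptor half-site AGGTCA and CCTCAG, the core of a motif given for STRA8 binding. The promoter of Rec8 lies at chr14:55617916-55618215 on the + strand, that of Hormad1 at chr3:95559427-95559726 on the + strand, that of Smc3 at chr19:53600146-53600445 on the + strand and that of Sycp3 at chr10:88459337-88459636 on the + strand.
Rec8: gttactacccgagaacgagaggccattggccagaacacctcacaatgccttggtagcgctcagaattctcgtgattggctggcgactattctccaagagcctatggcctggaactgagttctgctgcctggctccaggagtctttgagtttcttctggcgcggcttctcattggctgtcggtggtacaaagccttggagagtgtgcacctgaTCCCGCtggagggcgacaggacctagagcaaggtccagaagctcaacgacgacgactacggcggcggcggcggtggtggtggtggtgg
Hormad1: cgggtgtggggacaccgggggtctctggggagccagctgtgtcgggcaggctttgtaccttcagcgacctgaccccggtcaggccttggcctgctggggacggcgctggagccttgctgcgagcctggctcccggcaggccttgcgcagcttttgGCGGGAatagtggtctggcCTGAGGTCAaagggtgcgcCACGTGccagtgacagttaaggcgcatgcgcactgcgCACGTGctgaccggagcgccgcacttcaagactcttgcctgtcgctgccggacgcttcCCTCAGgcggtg
Smc3: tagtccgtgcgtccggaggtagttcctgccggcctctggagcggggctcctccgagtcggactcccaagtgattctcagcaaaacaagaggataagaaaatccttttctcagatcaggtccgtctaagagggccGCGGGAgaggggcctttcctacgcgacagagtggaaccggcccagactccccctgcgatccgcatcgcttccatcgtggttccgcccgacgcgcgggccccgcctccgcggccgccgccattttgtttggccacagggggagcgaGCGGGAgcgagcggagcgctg
Sycp3: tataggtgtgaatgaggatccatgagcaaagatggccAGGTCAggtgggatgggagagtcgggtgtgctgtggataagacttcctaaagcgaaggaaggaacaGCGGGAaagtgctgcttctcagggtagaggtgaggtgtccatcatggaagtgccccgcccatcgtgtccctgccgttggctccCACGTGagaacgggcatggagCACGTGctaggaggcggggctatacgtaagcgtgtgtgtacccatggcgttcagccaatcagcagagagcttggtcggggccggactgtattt
The Rec8 promoter held a single match, an E2F core on the gene's own strand at position -38 from the start. In the Hormad1 promoter, CCTCAG on the opposite strand and AGGTCA overlapped and form 1 run of capitals. An E2F core was found in 11 of the 12 promoters, for 9 of the 10 genes, and in 20.0% of the 32851 promoters in the table. An E-box was present for Stag3, Hormad1, Sycp1, Sycp3, Syce2 and Tex12, which is 6 of the 10 genes. It was in 7 of the 12 promoters and in 7.15% of all promoters. CCTCAG was present for 5 genes (Smc1b, Hormad1, Sycp1, Syce2 and Tex12), in 6 of the 12 promoters and in 26.8% of all promoters. AGGTCA was present for Hormad1 and Sycp3, in 3 of the 12 promoters and in 16.3% of all promoters. Sycp2 had no match to these letters in this window. The genes called higher in double knockout than in wild type included 1 with no E-box match (Rec8) and 4 with one, and those called lower in double knockout than in Cyp26b1 knockout included 2 with an E-box (Stag3 and Sycp3) and 2 without (Smc3 and Sycp2). A match is a string of letters and was not tested as a binding site.

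**Figure D2:**
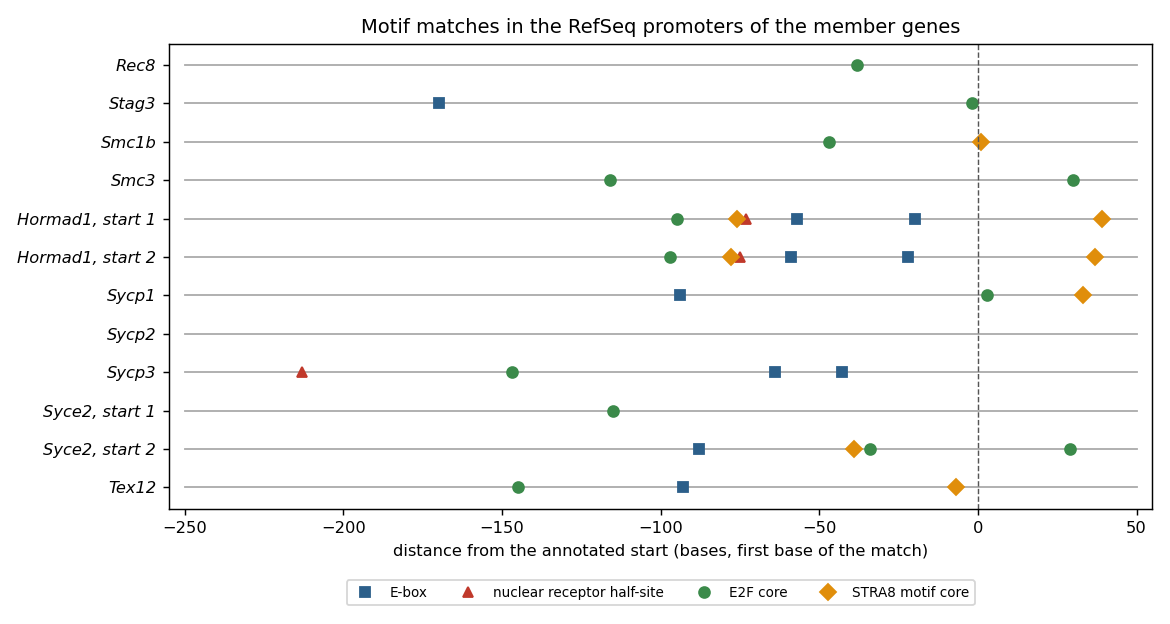
Positions of the motif matches in the 12 RefSeq promoters of the 10 genes, as distance in bases from the annotated start to the first base of the match. Squares are E-boxes, triangles nuclear receptor half-sites, circles E2F cores and diamonds the CCTCAG core. E2F cores appear on 11 of the 12 lines and E-boxes on 7.

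Rec8 encodes the meiotic kleisin, which closes the cohesin ring in place of RAD21. Its brighter probe had log2 levels of 4.84 and 4.42 in Cyp26b1 knockout, 4.78 and 5.08 in double knockout and 1.76 and 1.98 in wild type. Both knockouts overlapped each other and lay well above both wild-type arrays. The log2 change against wild type was 2.77 ± 0.16 (SE) in Cyp26b1 knockout and 3.06 ± 0.16 in double knockout, with limma adjusted p values of 7.39e-05 and 0.00026. These were the 84th highest and the 24th highest changes of all tested probes. The dimmer Rec8 probe had 2.18 and 1.74 in Cyp26b1 knockout, 1.55 and 1.80 in double knockout and -1.33 and -1.36 in wild type. It gave rises of 3.30 ± 0.15 in Cyp26b1 knockout and 3.02 ± 0.15 in double knockout (limma adjusted p = 4.29e-05 and 0.000219). Between double knockout and Cyp26b1 knockout the probes differed in sign, at 0.29 (95% interval -0.09 to 0.67, limma adjusted p = 0.184) and -0.28 (-0.64 to 0.07, limma adjusted p = 0.166). Neither passed the test, and the intervals leave room for a difference of up to 0.67 upward or 0.64 downward on the log2 scale. Without Cyp26b1 knockout replicate 1 the brighter probe passed as higher in double knockout, at 0.50 (limma adjusted p = 0.0461).

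Stag3 encodes the meiosis-specific STAG subunit, which binds the kleisin in place of STAG1 or STAG2. Its log2 levels were 3.78 and 4.04 in Cyp26b1 knockout, 3.11 and 3.35 in double knockout and 2.60 and 2.74 in wild type. The 3 genotypes did not overlap, and double knockout lay in between. Stag3 was 2.37-fold higher in Cyp26b1 knockout than in wild type (log2 change 1.24 ± 0.13, limma adjusted p = 0.000271) and 1.48-fold higher in double knockout than in wild type (0.56 ± 0.13, limma adjusted p = 0.0316). It was 1.60-fold lower in double knockout than in Cyp26b1 knockout (-0.68 ± 0.13, limma adjusted p = 0.00429). Its call in double knockout against wild type was lost in 8 of the 18 other settings that give a test. Among these were leaving out double knockout replicate 2, at 0.44 (limma adjusted p = 0.136), and wild-type replicate 1 or 2, at 0.49 and 0.63 (limma adjusted p = 0.166 and 0.114). The others were quantile scaling (0.52, limma adjusted p = 0.0615), cyclic loess (0.50, limma adjusted p = 0.0635), unscaled arrays (0.49, limma adjusted p = 0.177), no filter on dim probes (limma adjusted p = 0.0673) and no intensity trend (limma adjusted p = 0.0785).

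Smc1b and Smc3 encode the SMC arms of the ring, of which SMC1B is the meiotic form of SMC1A, while SMC3 serves mitotic and meiotic complexes alike. Smc1b had log2 levels of 3.93 and 3.82 in Cyp26b1 knockout, 3.68 and 3.30 in double knockout and 3.05 and 2.44 in wild type. The genotypes did not overlap, but the wild-type arrays lay farther apart than those of either knockout. Smc1b rose in Cyp26b1 knockout against wild type (1.13 ± 0.20, limma adjusted p = 0.00291). Its change in double knockout against wild type was 0.74 (95% interval 0.27 to 1.22, limma adjusted p = 0.0566) and in double knockout against Cyp26b1 knockout -0.39 (-0.86 to 0.09, limma adjusted p = 0.156), so the data do not place Smc1b on either side. It passed as higher in double knockout than in wild type in 5 of the 18 other settings that give a test, among them leaving out wild-type replicate 1, at 1.05.

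The brighter Smc3 probe had log2 levels of 3.16 and 3.17 in Cyp26b1 knockout, 2.45 and 2.64 in double knockout and 2.18 and 2.32 in wild type. Cyp26b1 knockout stood clear of the other genotypes, and double knockout lay just above wild type. Smc3 rose by 0.91 ± 0.10 in Cyp26b1 knockout (limma adjusted p = 0.000344) and was lower in double knockout than in Cyp26b1 knockout by -0.62 ± 0.10 (limma adjusted p = 0.00228). The difference of double knockout from wild type was 0.29 (95% interval 0.06 to 0.52) and did not pass (limma adjusted p = 0.101). The dimmer Smc3 probe went the other way against wild type, with -2.02 and -2.04 in Cyp26b1 knockout, -1.87 and -2.86 in double knockout and -1.36 and -1.44 in wild type. Its changes of -0.63 in Cyp26b1 knockout and -0.96 in double knockout did not pass (limma adjusted p = 0.0965 and 0.0689), so the rise of Smc3 rests on 1 of its 2 probes.

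Hormad1 encodes a HORMA-domain protein that marks unsynapsed axes. Its brighter probe had log2 levels of 0.61 and 0.70 in Cyp26b1 knockout, 0.52 and 0.57 in double knockout and -0.02 and -0.20 in wild type. The knockouts lay close together and above both wild-type arrays. The log2 change was 0.77 ± 0.10 in Cyp26b1 knockout (limma adjusted p = 0.00068) and 0.66 ± 0.10 in double knockout (limma adjusted p = 0.00807). Between double knockout and Cyp26b1 knockout it was -0.11, with a 95% interval of -0.34 to 0.12 (limma adjusted p = 0.392). The dimmer probe had -1.68 and -1.48 in Cyp26b1 knockout, -1.90 and -1.87 in double knockout and -2.10 and -2.59 in wild type. It rose by 0.76 ± 0.18 in Cyp26b1 knockout (limma adjusted p = 0.00896), and its change of 0.46 in double knockout did not pass (limma adjusted p = 0.137). The brighter probe's change in double knockout missed the threshold in 3 of the 18 other settings that give a test. These were without wild-type replicate 2, at 0.57, with unscaled arrays, at 0.58 (limma adjusted p = 0.0832), and with normexp on all spots, at 0.57 (limma adjusted p = 0.079).

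Sycp3 and Sycp2 encode the partner proteins of the lateral element that coats the axis. Sycp3 had log2 levels of 1.85 and 2.19 in Cyp26b1 knockout, 1.23 and 1.41 in double knockout and 1.16 and 0.91 in wild type. It rose by 0.99 ± 0.14 in Cyp26b1 knockout (1.98-fold, limma adjusted p = 0.00107) and was 1.62-fold lower in double knockout than in Cyp26b1 knockout (-0.70 ± 0.14, limma adjusted p = 0.00623), the most negative such change among the brightest probes of the 10 genes. Double knockout and wild type differed by 0.29 (95% interval -0.04 to 0.62, limma adjusted p = 0.22). Sycp2 had 3 probes, and its brightest had -0.45 and -0.05 in Cyp26b1 knockout, -0.99 and -0.83 in double knockout and -0.74 and -0.62 in wild type. All 3 Sycp2 probes were lower in double knockout than in Cyp26b1 knockout, by log2 changes of -0.66, -0.69 and -1.03 (limma adjusted p = 0.00931, 0.00714 and 0.00707). Against wild type the probes differed. In Cyp26b1 knockout the brightest rose by 0.43 ± 0.15 (limma adjusted p = 0.041), the next changed by 0.05 (limma adjusted p = 0.81) and the dimmest rose by 0.69 ± 0.21 (limma adjusted p = 0.0288). In double knockout the same probes gave -0.23, -0.65 and -0.34, of which the middle value alone passed as lower (limma adjusted p = 0.339, 0.0317 and 0.332). The rise of the brightest probe in Cyp26b1 knockout was lost under 10 of the 18 other settings that give a test. Among them were leaving out Cyp26b1 knockout replicate 2 (0.23) or wild-type replicate 1 (0.37) or 2 (0.49).

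Sycp1 encodes the transverse filament protein of the synaptonemal complex. Its log2 levels were 0.89 and 0.83 in Cyp26b1 knockout, 0.85 and 1.07 in double knockout and 0.49 and 0.29 in wild type. The knockouts overlapped, and both lay above wild type. The change was 0.47 ± 0.11 in Cyp26b1 knockout (limma adjusted p = 0.0103) and 0.57 ± 0.11 in double knockout (limma adjusted p = 0.0214), and double knockout minus Cyp26b1 knockout gave 0.10 with a 95% interval of -0.16 to 0.37 (limma adjusted p = 0.479). The call in Cyp26b1 knockout was lost without wild-type replicate 2, at 0.37 (limma adjusted p = 0.0767), and with unscaled arrays, at 0.06. That in double knockout was lost without double knockout replicate 2 or either wild-type array, at 0.46 to 0.67, with unscaled arrays, at 0.50 (limma adjusted p = 0.149), and with no intensity trend (limma adjusted p = 0.0568).

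Syce2 and Tex12 encode central element proteins that bind each other. Syce2 had log2 levels of 4.15 and 3.98 in Cyp26b1 knockout, 3.72 and 3.69 in double knockout and 3.35 and 2.89 in wild type, with no overlap between genotypes. It rose by 0.95 ± 0.15 in Cyp26b1 knockout (limma adjusted p = 0.00156) and by 0.59 ± 0.15 in double knockout (limma adjusted p = 0.0446). That call was lost in 8 of the 18 other settings that give a test, among them leaving out any 1 array except wild-type replicate 1 (0.36 to 0.60). Double knockout minus Cyp26b1 knockout was -0.36, with a 95% interval of -0.70 to -0.02 (limma adjusted p = 0.0812). This difference passed as lower in 6 of the same 18 settings, among them leaving out either wild-type array. Tex12 did not follow Syce2. Its brighter probe had 1.97 and 2.10 in Cyp26b1 knockout, 2.08 and 2.06 in double knockout and 2.43 and 2.20 in wild type. The change was -0.28 in Cyp26b1 knockout (95% interval -0.52 to -0.04, limma adjusted p = 0.0505, and -0.40 with 0.0383 without wild-type replicate 2), -0.25 in double knockout (limma adjusted p = 0.163) and 0.04 in double knockout against Cyp26b1 knockout (limma adjusted p = 0.793). The dimmer Tex12 probe had 0.69 and 0.79 in Cyp26b1 knockout, 1.21 and 1.17 in double knockout and 1.49 and 1.32 in wild type. It fell by 0.67 in Cyp26b1 knockout (limma adjusted p = 0.00104), changed by -0.22 in double knockout (limma adjusted p = 0.179) and was higher in double knockout than in Cyp26b1 knockout by 0.45 ± 0.09 (limma adjusted p = 0.00728).

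**Figure D3:**
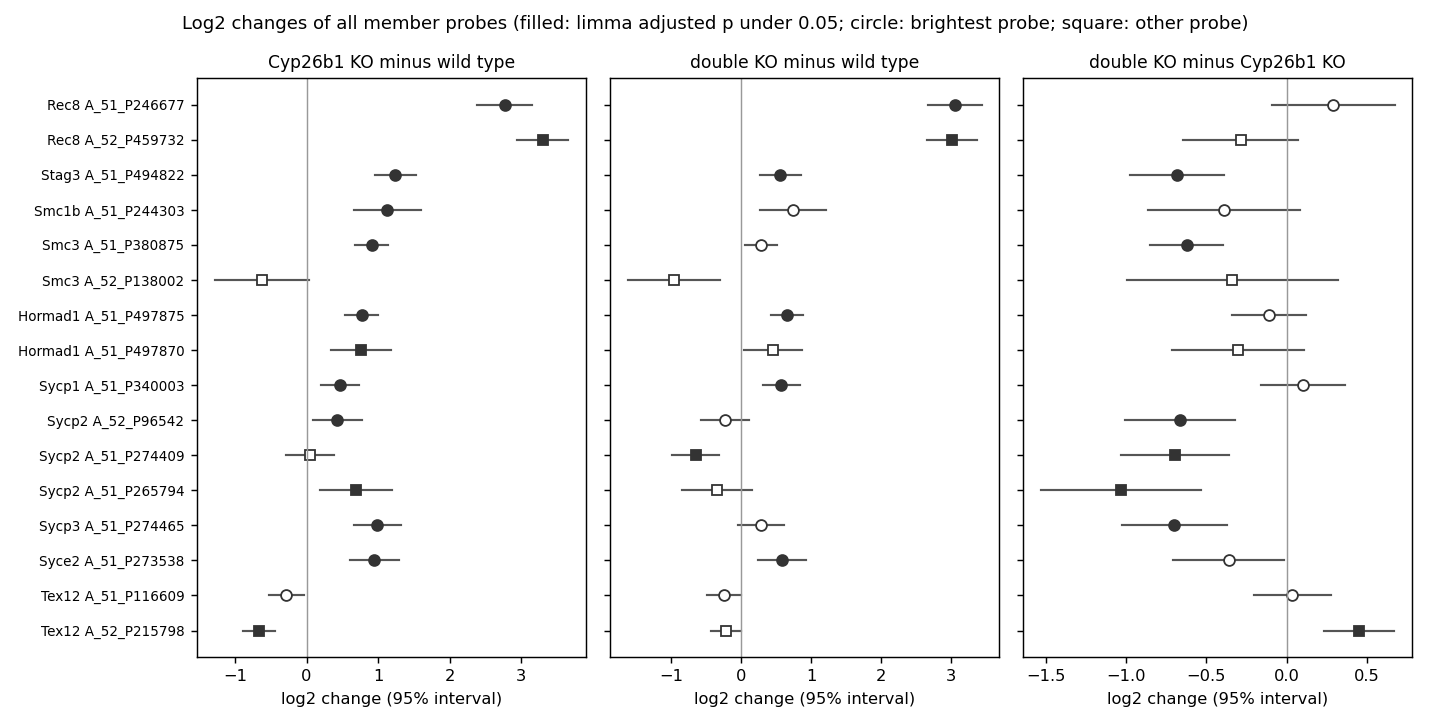
Log2 changes of all 16 probes of the 10 genes in Cyp26b1 knockout minus wild type, double knockout minus wild type and double knockout minus Cyp26b1 knockout, with 95% intervals from the limma fit. Filled symbols passed an adjusted p of 0.05; circles are the brightest probe of a gene and squares the others. Both Rec8 probes stand apart at 2.77 to 3.30 in the first and middle panels, and in the last panel Stag3, the brighter Smc3 probe, all 3 Sycp2 probes and Sycp3 lie between -1.03 and -0.62.

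The direct comparison of the knockouts thus divided the genes by what their brightest probes passed. Rec8, Hormad1, Sycp1 and Syce2 were above wild type in both knockouts, with a difference between the knockouts that did not pass; for Syce2 its interval excluded 0. Stag3 was above wild type in both and lower in double knockout than in Cyp26b1 knockout. The Stag3 call in double knockout against wild type was lost in 8 of the 18 other settings that give a test. By their brightest probes, Smc3, Sycp2 and Sycp3 were above wild type in Cyp26b1 knockout, lower in double knockout than in Cyp26b1 knockout, and not called in double knockout against wild type. For Sycp2 the second probe did not pass in Cyp26b1 knockout (0.05) and passed as lower in double knockout against wild type (-0.65), and for Smc3 the second probe passed in neither. Smc1b passed in Cyp26b1 knockout against wild type alone, and the brightest Tex12 probe in no comparison. Counted over all 16 probes, 12 were higher and 1 lower in Cyp26b1 knockout against wild type, 6 higher and 1 lower in double knockout against wild type, and 1 higher and 6 lower in double knockout against Cyp26b1 knockout. Beside these, the shares of all tested probes higher and lower were 25.1% and 28.0%, 5.02% and 6.46%, and 23.5% and 22.3% in turn. Probes of the same gene are not separate members, and the Sycp2 probes were all among the 6 lower ones. The 5 calls in double knockout against wild type fell to 1 (Rec8) without wild-type replicate 2 and to 2 (Rec8 and Hormad1) without double knockout replicate 2.

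Most of the 10 genes were bright, and the change of all probes varied with brightness. Tested probes were divided into 5 equal bins by their mean level. From the dimmest to the brightest bin, the median log2 change of double knockout against Cyp26b1 knockout ran from -0.24 to 0.20, and that of Cyp26b1 knockout against wild type from 0.07 to -0.13. Of the probes in the brightest bin, 16.2% were higher and 35.4% lower in Cyp26b1 knockout than in wild type, and 38.4% were higher and 10.8% lower in double knockout than in Cyp26b1 knockout. Relative to the median of its own bin, Rec8's brighter probe lay at 0.09 in double knockout against Cyp26b1 knockout, and the dimmer one at -0.39. Stag3 lay at -0.88, Smc3 at -0.82, Sycp3 at -0.80, Sycp2 at -0.65, Smc1b at -0.58, Syce2 at -0.56, Hormad1 at -0.22, Tex12 at -0.16 and Sycp1 at 0.00 in the same comparison. Without scaling between arrays, the median of all probes in Cyp26b1 knockout against wild type moved to -0.45, where Hormad1 (0.36), Sycp1 (0.06) and Sycp2 (0.02) no longer passed and Tex12 passed as lower (-0.69). Likewise the median of all probes in double knockout against Cyp26b1 knockout moved to 0.37, none of the 4 lower calls passed and Rec8 passed as higher (0.62). Scaling subtracts 1 constant from each array, so a change minus the median of all probes is the same with and without it by construction. Relative to that median Stag3 lay at -0.72, Smc3 at -0.66, Sycp2 at -0.70 and Sycp3 at -0.73 in double knockout against Cyp26b1 knockout, and Hormad1 lay at 0.81, Sycp1 at 0.51, Sycp2 at 0.47 and Tex12 at -0.24 in Cyp26b1 knockout against wild type.

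**Figure D4:**
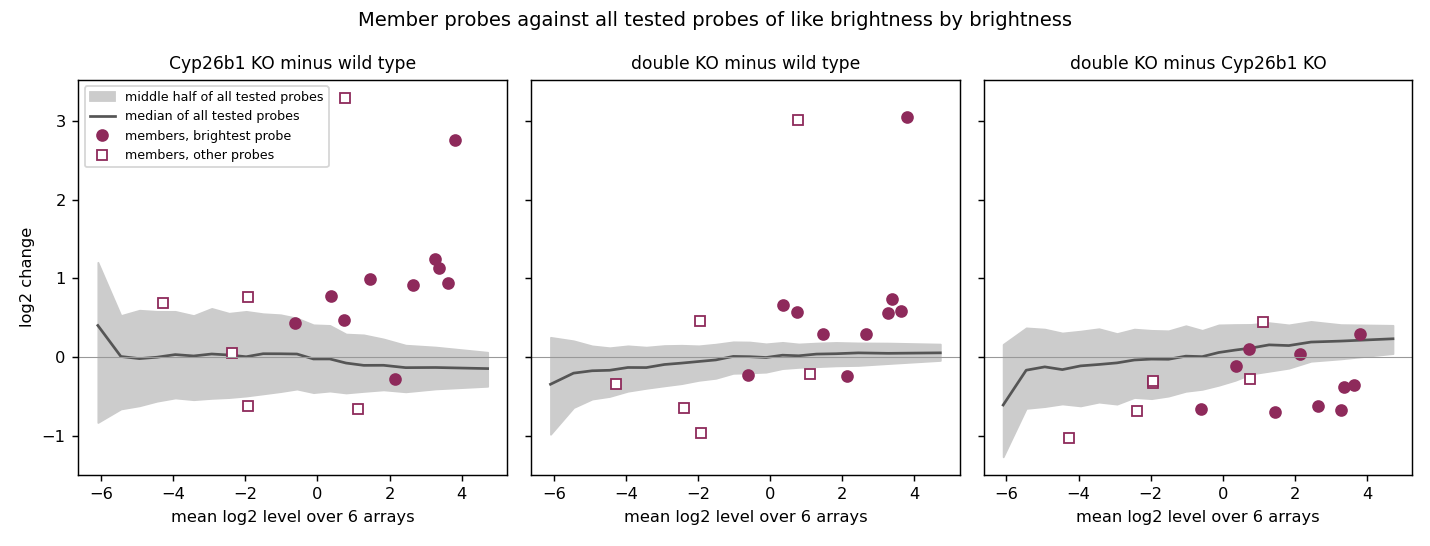
Log2 change of each member probe (circles, brightest probe of a gene; squares, other probes) against its mean log2 level over the 6 arrays, in the 3 comparisons. The line is the median and the band the middle 50% of all tested probes in 20 bins of brightness. In Cyp26b1 knockout minus wild type the circles other than Tex12 lie above the line, and in double knockout minus Cyp26b1 knockout most of the circles at the bright end lie below a line that has risen above 0.

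None of the mitotic counterparts of these subunits was called higher in Cyp26b1 knockout than in wild type by its brightest probe. Rad21, the mitotic kleisin, had log2 levels of 4.75 and 4.64 in Cyp26b1 knockout, 5.29 and 5.36 in double knockout and 5.45 and 5.38 in wild type. It fell in Cyp26b1 knockout (-0.73 ± 0.09, limma adjusted p = 0.000597), differed by -0.09 in double knockout from wild type (limma adjusted p = 0.527) and was higher in double knockout than in Cyp26b1 knockout (0.63 ± 0.09, limma adjusted p = 0.00152). Stag1 fell by 0.32 and Stag2 by 0.59 in Cyp26b1 knockout, and both were higher in double knockout than in Cyp26b1 knockout, by 0.39 and 0.58, while neither was called in double knockout against wild type (0.06 and -0.01). The fall of Stag1 missed the threshold with quantile scaling (-0.21) and cyclic loess (-0.22), and those of Rad21 and Stag2 passed under every scaling tried. Smc1a, the mitotic form of Smc1b, passed in no comparison by its brightest probe (-0.18, -0.01 and 0.17). With unscaled arrays that probe passed as lower in Cyp26b1 knockout than in wild type (-0.58, limma adjusted p = 0.00434). It then also passed as higher in double knockout than in Cyp26b1 knockout (0.50, limma adjusted p = 0.0133). The second Smc1a probe passed as lower in double knockout than in Cyp26b1 knockout (-0.50, limma adjusted p = 0.017). Dimmer probes of the other subunits did not all follow. In Cyp26b1 knockout against wild type the other Rad21 probe gave 0.29 and the other Stag2 probe 0.00, and neither passed, while the other Stag1 probes gave 0.15, 0.18 and -0.95, of which the last alone passed. Of 20 genes of mitotic cohesin and its regulators, 17 were matched to a probe and tested. In Cyp26b1 knockout against wild type 4 were higher and 9 lower (median -0.32). In double knockout against wild type 1 was higher and 1 lower (median 0.06). In double knockout against Cyp26b1 knockout 8 were higher and 4 lower (median 0.32). Over all tested probes the shares higher and lower were 25.1% and 28.0%, 5.02% and 6.46%, and 23.5% and 22.3% in turn. The brightest of the 5 bins held the brightest probes of Rad21, Stag1 and Smc1a. Its shares were 16.2% and 35.4% in Cyp26b1 knockout against wild type, and 38.4% and 10.8% in double knockout against Cyp26b1 knockout. The part of brightness in these changes was not tested. The largest called changes in Cyp26b1 knockout were in Haspin, a kinase that protects centromeric cohesion (-1.03), Hdac8, the SMC3 deacetylase (0.97), and Espl1, which encodes separase (0.95). In double knockout against wild type the called genes were Pttg1, which encodes securin (-0.51), and Cdca5, which encodes sororin (0.43). Against Cyp26b1 knockout the largest were Mau2, of the cohesin loader (-0.84), Espl1 (-0.78) and Haspin (0.72). The second Cdca5 probe went the other way in Cyp26b1 knockout, at 1.22 against -0.24 for the brightest.

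Other genes of the meiotic axis and synaptonemal complex were covered in part: 8 of 21 were matched to a probe and 7 tested, Mei4 being too dim to test in all genotypes. In Cyp26b1 knockout 4 were higher (Kash5, Terb1, Tex11 and Sun1) and 1 lower (Fkbp6). In double knockout against wild type 1 was higher (Kash5) and none lower, and in double knockout against Cyp26b1 knockout 2 were higher (Trip13 and Fkbp6) and 4 lower (Terb1, Kash5, Six6os1 and Tex11), by their brightest probes. Over all tested probes 25.1% were higher and 28.0% lower in Cyp26b1 knockout against wild type. The shares were 5.02% and 6.46% in double knockout against wild type, and 23.5% and 22.3% in double knockout against Cyp26b1 knockout. Among the 7 tested genes, the largest changes were in 2 genes of the link between telomeres and the nuclear envelope. Terb1, a meiotic telomere protein, had -2.22 and -1.77 in Cyp26b1 knockout, -4.32 and -5.10 in double knockout and -3.31 and -4.04 in wild type. It rose by 1.68 ± 0.33 in Cyp26b1 knockout (limma adjusted p = 0.00459), was 6.59-fold lower in double knockout than in Cyp26b1 knockout (-2.72 ± 0.33, limma adjusted p = 0.000925) and gave -1.04 in double knockout against wild type (limma adjusted p = 0.0894). Kash5, which couples telomeres to dynein outside the nucleus, had -1.88 and -1.80 in Cyp26b1 knockout, -3.46 and -3.44 in double knockout and -3.95 and -4.22 in wild type by its brighter probe. It rose by 2.25 ± 0.16 in Cyp26b1 knockout (limma adjusted p = 9.45e-05) and by 0.64 ± 0.16 in double knockout (limma adjusted p = 0.0412), and was lower in double knockout than in Cyp26b1 knockout by -1.61 ± 0.16 (limma adjusted p = 0.000443). Tex11 rose by 0.53 in Cyp26b1 knockout, a call lost with unscaled arrays (0.12, limma adjusted p = 0.676), and was lower in double knockout than in Cyp26b1 knockout by -0.40, a call lost under each of the 4 other scalings. Sun1, an inner nuclear membrane protein that anchors telomeres, rose by 0.27 in Cyp26b1 knockout. That direction turned to -0.14 with unscaled arrays, and the call was lost with scaling to the median of detected probes (0.24, limma adjusted p = 0.0592). Sun1 gave -0.11 in double knockout against Cyp26b1 knockout (limma adjusted p = 0.373). There it passed as lower with quantile scaling (-0.28, limma adjusted p = 0.0121) and cyclic loess (-0.32, limma adjusted p = 0.00703). Trip13, an ATPase that remodels HORMA-domain proteins, gave -0.01 in Cyp26b1 knockout against wild type (limma adjusted p = 0.964) and was higher in double knockout than in Cyp26b1 knockout by 0.33, a call lost with quantile scaling (0.18) and cyclic loess (0.14). The rise of Terb1 and of the brighter Kash5 probe in Cyp26b1 knockout and their lower level in double knockout passed under every scaling tried. The dimmer Kash5 probe was well above background on no array of double knockout or wild type. It passed in no comparison, at 0.77 in Cyp26b1 knockout and 0.11 in double knockout against wild type (limma adjusted p = 0.0687 and 0.841). Between double knockout and Cyp26b1 knockout it gave -0.65 (limma adjusted p = 0.119). The probes of Fkbp6 went apart in Cyp26b1 knockout against wild type, at -0.61 and 0.60, and again in double knockout against Cyp26b1 knockout, at 0.45 and -0.65 (limma adjusted p = 0.00875 and 0.000943), all passing. Those of Six6os1, a central element gene, gave 0.08, 0.27 and -1.58 in Cyp26b1 knockout, of which the last passed. In double knockout against wild type they gave -0.46, -0.52 and -1.14, and all but the brightest passed as lower (limma adjusted p = 0.149, 0.0283 and 0.00792). In double knockout against Cyp26b1 knockout they gave -0.55, -0.79 and 0.44 (limma adjusted p = 0.0452, 0.0015 and 0.0662). The first of these calls was lost with unscaled arrays (-0.21, limma adjusted p = 0.485) and with scaling to the median of detected probes (-0.50, limma adjusted p = 0.062).

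**Figure D5:**
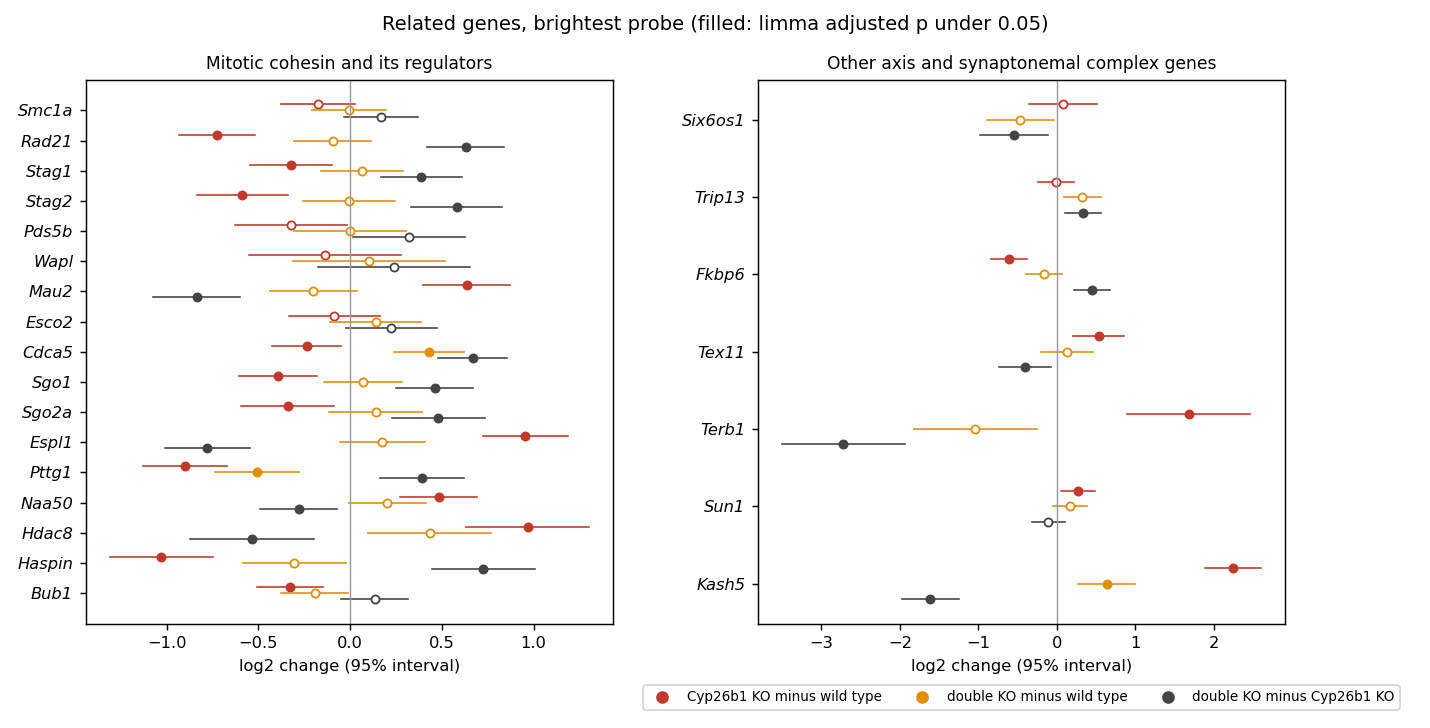
Log2 changes with 95% intervals for the brightest probe of mitotic cohesin genes and their regulators (left) and of other axis and synaptonemal complex genes (right), in Cyp26b1 knockout minus wild type (red), double knockout minus wild type (orange) and double knockout minus Cyp26b1 knockout (dark grey). Filled points passed an adjusted p of 0.05. Rad21, Stag1 and Stag2 lie left of 0 in red and right of 0 in dark grey, and Kash5 and Terb1 the opposite way.

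Of 12 germ cell genes, 11 were tested, each by its brightest probe. In Cyp26b1 knockout against wild type 2 were higher and 6 lower (median -0.46, from -2.01 for Dnd1 to 1.07 for Kit). In double knockout against wild type 2 were higher and 3 lower (median -0.19, from -1.17 for Tfap2c to 1.47 for Kit). In double knockout against Cyp26b1 knockout 5 were higher and none lower (median 0.40, from -0.19 for Pou5f1 to 1.94 for Nanos3). Over all tested probes the shares higher and lower were 25.1% and 28.0%, 5.02% and 6.46%, and 23.5% and 22.3% in turn. Ddx4, an RNA helicase of the germ line, fell in Cyp26b1 knockout (-0.46 ± 0.10, limma adjusted p = 0.00733). Dazl, an RNA-binding protein of germ cells, rose by 0.72 in Cyp26b1 knockout (limma adjusted p = 0.00478) and by 0.56 in double knockout (limma adjusted p = 0.0476) by its brighter probe. With unscaled arrays neither of these Dazl calls passed, at 0.31 and 0.48 (limma adjusted p = 0.145 and 0.123). Between double knockout and Cyp26b1 knockout this probe gave -0.16 (limma adjusted p = 0.405). The dimmer Dazl probe rose by 1.19 in Cyp26b1 knockout and by 0.41 in double knockout (limma adjusted p = 0.000185 and 0.0479). It passed as lower in double knockout than in Cyp26b1 knockout, at -0.78 (limma adjusted p = 0.00129). The part of germ cell content in the changes of the 10 genes was not tested.

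Named genes were also ranked by how closely their levels, relative to the wild-type mean, followed Rec8 and Sycp3 over the 6 arrays, among 13294 genes and by Euclidean distance on the log2 scale. The nearest to Rec8 were Pde4c (0.588), Rnase1 (0.590), Cidea (0.605), Cphx1 (0.825) and Rnf138rt1 (0.886), with mean changes of 2.44 to 3.33 in Cyp26b1 knockout and 2.90 to 3.28 in double knockout. The nearest to Sycp3 were Ankrd13a (0.187), Gdap2 (0.207), Stx16 (0.222), Pom121 (0.233) and Tcta (0.237), with mean changes of 0.88 to 1.02 in Cyp26b1 knockout and 0.20 to 0.38 in double knockout. No other member was among these nearest genes. The arrays share their slides within a genotype, so these distances are a description.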

How the data were processed

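Scanner files of 6 arrays were analysed, 2 per genotype. The authors deposited spot intensities on a linear scale, from Feature Extraction (Agilent), version 9.5 in the submitters' processing notes and 9.5.3.1 per the file headers. Its processed signal was background-subtracted and detrended within the array. The authors also deposited a table of linear ratios with 1 column per genotype (medians 1.12 in Cyp26b1 knockout, 0.959 in double knockout and 1.00 in wild type); its direction was settled against the scanner values, while its centring and scaling stay unknown.

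Control spots and spots marked by the software as signal outliers were left out, 25 probes without a usable spot on some array were dropped, and spots of a probe were averaged. The log2 processed signal was centred on each array's 75th percentile. A probe was tested if some genotype had it well above background on each of its arrays, which held for 27865 probes. A single limma fit (limma 3.58.1, R 4.3.3; lmFit, eBayes with intensity trend) covered all arrays, with 3 degrees of freedom from residuals and 4.46 from the prior. Tests were two-sided, and Benjamini-Hochberg adjustment over all tested probes was used with calls below 0.05. The fit was also run on simulated arrays with few changed probes and no slide effect. That run gives no error rate for these arrays. Of 41149 probes, 23363 matched 1 gene symbol of the RefSeq table (assembly GRCm38.p6), none matched several and 17786 matched none. The brightest probe on average over all arrays stands for a gene. No probe of the 10 genes was saturated. An exact permutation test of 2 against 2 arrays cannot go below 0.333, and the number of arrays limits the precision.

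The members and lists were chosen with earlier results of these data known. Named are all members and all their probes, the mitotic counterparts and up to 3 called mitotic cohesin genes with the largest change per comparison, all tested genes of the second list, Ddx4 and Dazl, the targeted genes, and the 5 nearest genes to Rec8 and to the member most lowered in double knockout against Cyp26b1 knockout. Germ cell genes at the ends of ranges and some cell type markers were named as well. Meiosin was not analysed here. The alternatives were other scalings, normexp background correction (offset 50), other filters on dim probes, 1 probe per gene, no trend, only the arrays compared, leaving out each array, a replicate block and the authors' table. The mean spot signal that normexp was planned on was replaced by the median spot signal.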

Additional observations from a re-analysis of the deposited data

How the results depend on the processing

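In Cyp26b1 knockout against wild type, 7 to 10 of the 10 genes were called in either direction under 18 alternatives. Rec8, Stag3, Smc1b, Smc3, Sycp3 and Syce2 passed as higher in every one that gives a test. The 10 calls came with probes well above background on all arrays, and were 9 higher and 1 lower (Tex12). Tex12 also passed as lower with scaling to the median of detected probes (-0.32) and without wild-type replicate 2 (-0.40). The 9 calls became 7 with unscaled arrays, where Hormad1, Sycp1 and Sycp2 did not pass and Tex12 passed as lower. In double knockout against wild type, Rec8 passed in every alternative with a test. The 5 calls there became 3 with unscaled arrays, 3 with no filter on dim probes and 2 with no intensity trend, and leaving out 1 array gave 1 to 4. In double knockout against Cyp26b1 knockout none of the 4 lower calls passed with unscaled arrays, where Rec8 alone passed, as higher (0.62). Under the other alternatives 3 to 6 genes were called. Over all probes, normexp on all spots called 4703 in Cyp26b1 knockout against wild type, 594 in double knockout against wild type and 3657 in double knockout against Cyp26b1 knockout. Double knockout against wild type gave 1816 calls with unscaled arrays, 1916 with no filter and 648 to 3526 with 1 of the 6 arrays left out, against 3198. The share of calls that were higher was 47.3% in Cyp26b1 knockout against wild type, 43.7% in double knockout against wild type and 51.2% in double knockout against Cyp26b1 knockout, and 16.6%, 29.7% and 80.9% with unscaled arrays, where the medians of all probes moved to -0.45, -0.10 and 0.37. Among the 10 genes, signs turned in double knockout against Cyp26b1 knockout alone. Tex12 gave -0.0806 with quantile scaling, -0.0223 with normexp on all spots, -0.0316 to 0.104 with 1 array left out and -0.10 with cyclic loess, which was chosen after seeing the data. Hormad1 gave 0.22 with unscaled arrays, and Sycp1 gave -0.00448 to 0.213 with 1 array left out. By the authors' deposited table, which is shifted by -0.30 in this comparison, Rec8 gave -0.0111, Sycp1 -0.20 and Tex12 -0.27. Among the other genes named, calls lost with unscaled arrays included those of Kash5 (0.56), Cdca5 (0.35) and Dazl (0.48) in double knockout against wild type, Dazl (0.31) and Tex11 (0.12) in Cyp26b1 knockout against wild type, and Espl1 (-0.44), Six6os1 (-0.21) and Tex11 (-0.07) between the knockouts. Sun1 turned from a call to -0.14 in Cyp26b1 knockout against wild type there, and uncalled values turned sign under some scaling for Trip13 and Six6os1 in that comparison, for Stag1, Stag2 and Smc1a in double knockout against wild type, and for Smc1a, Sun1 and Dazl between the knockouts. Fkbp6 lost its call between the knockouts with quantile scaling (0.23) and cyclic loess (0.19). Calls were also gained. Sun1 passed as lower in double knockout than in Cyp26b1 knockout with quantile scaling (-0.28) and cyclic loess (-0.32). Trip13 passed as higher in double knockout against wild type with quantile scaling (0.30). With unscaled arrays Smc1a (-0.58) and Trip13 (-0.41) passed as lower in Cyp26b1 knockout, and Terb1 (-1.11) in double knockout, each against wild type. Smc1a (0.50) then passed as higher in double knockout than in Cyp26b1 knockout. The cause of these changes was not tested. A block on the array number, which the labels do not tie to a shared litter or day, gave 9, 6 and 6 calls among the 10 genes in the 3 comparisons: Smc1b also passed in double knockout against wild type and against Cyp26b1 knockout, and Syce2 in the last. The replicate 1 minus 2 differences correlated across probes at 0.10, 0.09 and 0.19 between genotypes. A random block on slide could not be fitted, since each slide holds 1 genotype. All 16 probes were well above background on every array, so depth limits no call by a bound.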
